A study of Arabidopsis thaliana with 9 samples.

Results

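Roots of the Arabidopsis thaliana line myb36-1 were compared with roots of the wild type Col-0, on 3 arrays of each line, which are 6 of the 9 arrays in the series. The arrays were chosen by the line given in their labels, and no measured value entered that choice. The comparison covers 31325 probe sets and, among them, 16548 genes that could be named from a probe set paired with 1 gene. myb36-1 is described in the series as a mutant of MYB36, and the nature of its lesion is not given in the sources used here. Plants of both lines were 2 weeks old, had grown on upright agar plates of the mineral medium MGRL with sucrose under long days, and had received no further treatment. Total RNA of whole roots was measured, so every root cell type was mixed. A second mutant line, myb36-2, entered the fit only to help estimate the spread between arrays.

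MYB36 is a transcription factor of the endodermis, the innermost layer of the root's ground tissue. It switches on genes that build the Casparian strip, a ring of lignin in the endodermal wall that seals the space between cells. Dirigent proteins and peroxidases place and polymerise that lignin, and a receptor pathway with small peptide ligands senses whether the seal is closed.

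The 6 arrays correlated with each other at 0.988 to 0.994 over all tested probe sets. Values are log2 RMA expression values throughout, and a change is the myb36-1 mean minus the Col-0 mean with the standard error (SE) of the fit, n = 3 arrays per line. A gene was called, and is said to have risen or fallen, at an adjusted p under 0.05 in limma over all tested probe sets. Whether arrays of the same line stand for independently grown plants is not given in the labels, and the p-values therefore reflect array-to-array spread, which may be technical. The tables used here name no probe set for MYB36, and the labels were not checked on its transcript. Of 11 endodermal markers, the 3 that were measured (DIR9, DIR24 and SGN1) fell, as described below. All 3 also belong to the list of Casparian strip genes, so their fall is no separate check on the endodermis. No other endodermal marker was measured. The 3 cortex markers changed by -0.10 to 0.08, and the root hair expansins EXPA7 and EXPA18 by 0.01 and 0.03. The leaf genes RCA and LHCB4.1, listed as markers of shoot tissue, changed by -0.18 and -0.24. In Col-0 they were at percentiles 71.8 and 71.5 of the tested probe sets. Their changes compare the lines and do not show that shoot tissue was absent. None of these 7 genes passed the test (limma adjusted p 0.603 to 0.985). In whole roots, fewer endodermal cells and less RNA per endodermal cell cannot be told apart.

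In all, 155 probe sets were called, which is 0.495% of those tested, 71 of them higher and 84 lower in myb36-1. Among named genes 41 rose, or 0.248%, and 39 fell, or 0.236%, while the median change of all named genes was -0.003. At an unadjusted p under 0.05, 812 genes were higher (4.91%) and 928 lower (5.61%). All 3 myb36-1 arrays lay above all 3 Col-0 arrays in 8.22% of named genes and below them in 9.51%, and none of the 80 called genes had overlapping groups. The called genes were few but spanned a wide range of sizes. Of the genes that rose, 5 changed by at least 2 log2 units, 10 by 1 to 2 units and 26 by less than 1 unit. Of those that fell, 6 changed by at least 2 units, 10 by 1 to 2 units and 23 by less than 1 unit. When each of the 6 arrays was left out in turn, 11 of the 15 larger rises and 15 of the 16 larger falls were called every time. The same held for 4 of the 26 smaller rises and 4 of the 23 smaller falls, and 16 of those rises and 10 of those falls were called in none of these fits. The highest adjusted p that any called gene reached when 1 array was left out was 0.184.

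**Figure D1:**
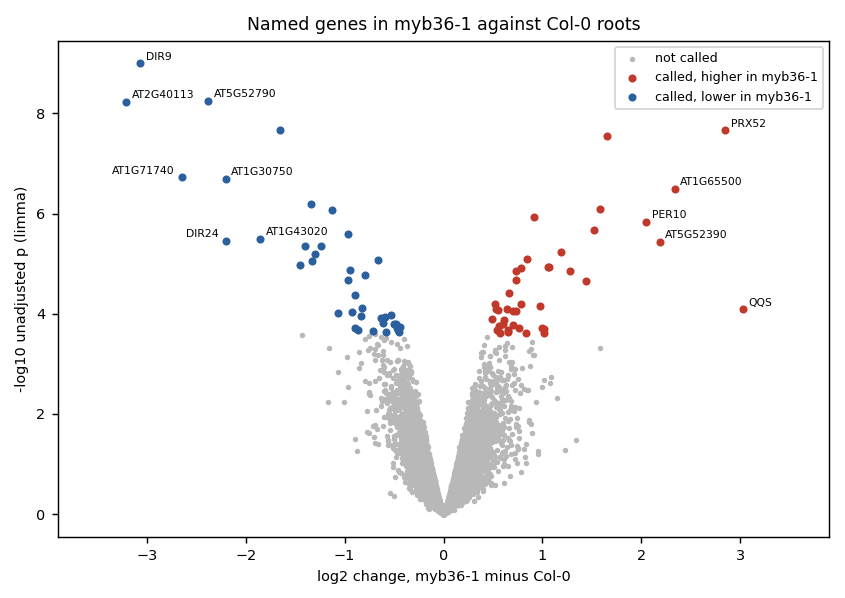
Each point is a named gene, with its log2 change (myb36-1 minus Col-0) on the horizontal axis and -log10 of the unadjusted limma p on the vertical axis. Coloured points are the 41 genes that rose and the 39 that fell, and the named extremes run from AT2G40113 at -3.21 to QQS at 3.02.

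Genes of the Casparian strip were among the falls, and are described first. DIR9, a dirigent protein gene, had 3.31, 3.22 and 3.69 in myb36-1 roots, against 6.38, 6.58 and 6.46 in Col-0 roots. All 3 mutant arrays lay far below all 3 wild-type arrays, and the change was -3.07 ± 0.12 (adjusted p 6.9e-06). DIR24, a second dirigent protein gene, had 5.86, 5.74 and 6.13 in myb36-1, against 8.08, 8.07 and 8.17 in Col-0. Its groups did not overlap either, and it fell by 2.20 ± 0.22 on the log2 scale (adjusted p 0.0028). PER9, one of the peroxidases that act in strip lignification, had 3.39, 3.45 and 3.55 in myb36-1, against 4.84, 5.33 and 4.57 in Col-0. The lowest Col-0 array stayed above every myb36-1 array, with a change of -1.45 ± 0.17 (adjusted p 0.0063). SGN1, the cytoplasmic kinase that relays the barrier signal, had 7.17, 7.54 and 7.35 in myb36-1, against 8.69, 8.49 and 8.58 in Col-0. It fell by 1.24 ± 0.13 on the log2 scale (adjusted p 0.0033), again without overlap.

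Among 25 listed Casparian strip genes 11 were measured, and 4 of them fell and none rose, where 0.236% of all named genes fell and 0.248% rose. Their median change was -0.35, against -0.003 over all named genes. The list was drawn up with earlier results of these data known, so its direction is not independent evidence. DIR18, another dirigent protein gene of the strip, had 4.73, 4.99 and 4.59 in myb36-1, against 6.31, 6.18 and 6.10 in Col-0. Its arrays did not overlap, yet it lay just outside the threshold, at -1.43 ± 0.25 (adjusted p 0.052). The receptor kinase gene GSO1 differed by -0.27 ± 0.10 and LOTR1, which is needed for correct strip placement, by -0.31 ± 0.07, and neither passed the test (adjusted p 0.352 and 0.149). The genes of the peptide ligands differed by less, CIF1 by -0.19 ± 0.15 and CIF2 by -0.07 ± 0.08, with overlapping arrays. CIF1 was dim, at percentile 26.6 of the tested probe sets in Col-0 and 21.3 in myb36-1, so its small difference says little. CIF2 was at percentiles 88.2 and 87.7. PER72 differed by -0.35 ± 0.12 and PER39 by 0.29 ± 0.07, the only positive value in the list. The 4 called falls were therefore in dirigent, peroxidase and kinase genes.

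**Figure D2:**
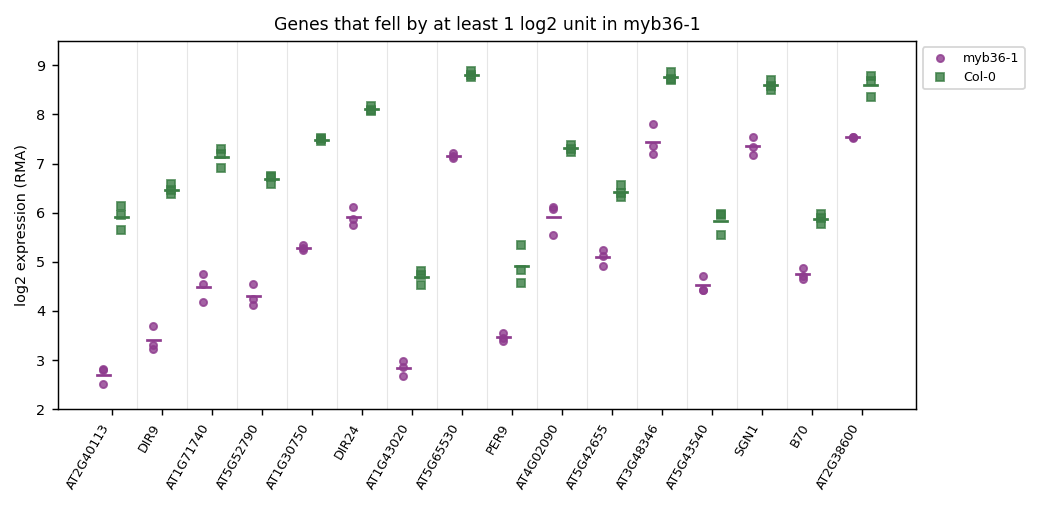
Log2 RMA values of the genes with the largest falls, array by array, with the 3 myb36-1 arrays left of the 3 Col-0 arrays for each gene and horizontal bars at the line means. In every gene shown the groups do not overlap, and DIR9 and AT2G40113 show the widest gaps.

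Most of the other large falls were in genes with no symbol in the tables, as are 89.4% of all named genes. AT2G40113 fell the most of all named genes, with 2.81, 2.79 and 2.51 in myb36-1, against 5.64, 6.14 and 5.95 in Col-0. The change was -3.21 ± 0.16 (adjusted p 2.0e-05). In myb36-1 AT2G40113 was dim, at percentile 12.1 of the tested probe sets, and so was AT1G43020, at 16.0. AT1G71740 had 4.75, 4.18 and 4.55 in myb36-1, against 6.92, 7.30 and 7.19 in Col-0, a change of -2.65 ± 0.19. AT1G30750 was almost constant within each line, with 5.28, 5.24 and 5.34 in myb36-1, against 7.46, 7.51 and 7.49 in Col-0. It fell by 2.20 ± 0.16 on the log2 scale (adjusted p 3.3e-04). AT1G43020 fell by 1.85 ± 0.19, AT4G02090 by 1.40 ± 0.15 and AT5G42655 by 1.34 ± 0.11 log2 units, and AT3G48346 changed by -1.325 ± 0.15, each with adjusted p of 0.0056 or lower in limma. All 7 genes of this group stayed called whichever array was left out.

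A membrane protein gene and several regulators fell as well. AT5G52790, of the CBS-DUF21 family of membrane proteins, had 4.55, 4.24 and 4.13 in myb36-1, against 6.58, 6.75 and 6.73 in Col-0. That is a change of -2.38 ± 0.12 (adjusted p 2.0e-05), while the other 6 measured members of the family lay between -0.15 and 0.10. AT5G65530, a receptor-like cytoplasmic kinase gene, had 7.12, 7.16 and 7.22 in myb36-1, against 8.76, 8.88 and 8.80 in Col-0, and fell by 1.65 ± 0.09 log2 units. AT1G03920, which encodes a kinase of the NDR type, fell by 0.89 ± 0.12, and AT1G19390, a wall-associated kinase-like gene, by 0.63 ± 0.10 log2 units. Transcription factor genes were also among the falls: the C2H2 zinc finger gene AT5G43540 at -1.30 ± 0.14 and the bHLH gene B70 at -1.13 ± 0.10. The calls of AT5G43540 and B70 held whichever array was left out, whereas AT1G03920 was called in 2 and AT1G19390 in 1 of the 6 fits that left out an array, with adjusted p up to 0.080 and 0.139.

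Further falls came from separate families, and are given 1 family at a time. The rhamnogalacturonate lyase gene AT2G22620, whose enzyme class cleaves pectin, had 6.55, 6.36 and 6.43 in myb36-1, against 7.47, 7.42 and 7.35 in Col-0. It fell by 0.96 ± 0.12 log2 units (adjusted p 0.0099), and 6 of the 7 measured genes of the family had negative values, with a median of -0.22. TBL30 and TBL33, of a family of wall polysaccharide O-acetyltransferases, fell by 0.53 ± 0.08 and 0.46 ± 0.08 log2 units. They were the called members among 23 measured TBL genes, whose median was -0.04. Among all named genes 0.236% fell, and 8403 of 16548 had negative values. TBL45 and TBL36 lay at -0.51 ± 0.13 and -0.37 ± 0.07 without passing the test (adjusted p 0.190 and 0.071). AT2G38600, a class B acid phosphatase gene, fell by 1.07 ± 0.16 log2 units, and the other 5 measured members of its family lay between -0.21 and -0.07. AT1G72230, of the uclacyanin-like blue copper proteins, fell by 0.48 ± 0.08, and MSRB5, a methionine sulfoxide reductase gene, by 0.48 ± 0.08 log2 units. Their families did not share the fall. The 11 measured uclacyanin-like genes had 6 positive and 5 negative values with a median of 0.05. Of 6 measured MSRB genes 5 had positive values, and the median was 0.07. The falls in these separate families were among the less stable calls. Leaving out 1 array raised the adjusted p of AT2G22620 to as much as 0.057 and of AT2G38600 to 0.124, and TBL30, TBL33, AT1G72230 and MSRB5 reached 0.129 to 0.163. In myb36-2, whose scale relative to the other arrays is unknown, TBL30, TBL33 and MSRB5 averaged 5.65, 6.22 and 5.33, against 5.19, 5.67 and 4.80 in myb36-1 and 5.72, 6.13 and 5.28 in Col-0.

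Another 15 falls, named here after their values were seen and without a role, were PER23 and PER32, described with the peroxidases, and loci whose changes lay between -0.94 and -0.44. AT1G28815 fell by 0.94 ± 0.11, AT4G11211 by 0.66 ± 0.07 and AT1G08670 by 0.80 ± 0.10 log2 units, and all 3 were called whichever array was left out. The 10 others were each called in at most 1 of those 6 fits, with adjusted p up to 0.168. They were AT4G17680, AT1G04330, AT4G39795, AT1G49750, AT3G18900, AT2G33850, AT1G33320, AT3G61117, AT3G17640 and AT2G23700. AT1G08670 was dim, at percentile 24.4 of the tested probe sets in Col-0 and 2.46 in myb36-1. AT1G04330 was at percentile 33.3 in Col-0 and 12.8 in myb36-1. In myb36-2, whose scale relative to the other arrays is unknown, AT1G28815, AT4G11211 and AT1G08670 averaged 5.12, 5.70 and 2.49. Their means were 5.88, 5.77 and 3.12 in Col-0, and 4.93, 5.11 and 2.32 in myb36-1.

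Class III peroxidase genes were among the largest rises. These secreted enzymes use hydrogen peroxide to oxidise wall phenolics, among them lignin precursors. PRX52, known for a part in lignin formation in stems, had 7.56, 7.50 and 7.85 in myb36-1, against 5.01, 4.47 and 4.89 in Col-0. The lowest mutant array lay well above the highest wild-type array, and the change was 2.85 ± 0.16 (adjusted p 5.6e-05). PER10 had 7.82, 8.06 and 8.20 in myb36-1, against 5.96, 5.57 and 6.40 in Col-0, a change of 2.05 ± 0.19 (adjusted p 0.0015). PER71 had 7.67, 7.98 and 7.88 in myb36-1, against 6.27, 6.57 and 6.86 in Col-0, a change of 1.28 ± 0.15 (adjusted p 0.0073). Prx37 rose by 0.91 ± 0.08 and PER49 by 0.85 ± 0.10, and all 5 peroxidase rises were called whichever array was left out.

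Of 73 listed class III peroxidase genes 64 were measured, and 5 rose, 3 fell and 56 were not called. Over all named genes 0.248% rose and 0.236% fell. At an unadjusted p under 0.05 the family held 14 higher and 6 lower genes, where the shares of all named genes were 4.91% and 5.61%. All myb36-1 arrays lay above all Col-0 arrays in 18 of the 64 genes and below them in 10, beside 8.22% and 9.51% of all named genes. The family median was 0.01, with 33 positive and 31 negative values. The family was written down with its called members known, so these counts are a description. Besides PER9, PER23 fell by 0.83 ± 0.12 (adjusted p 0.026) and PER32 by 0.51 ± 0.08 log2 units (adjusted p 0.042). PER23 lost its call without Col-0 replicate 3 or without any of the myb36-1 arrays, with adjusted p up to 0.116, and PER32 lost it in every fit that left out an array, with adjusted p up to 0.163. Several uncalled members had sizeable values. PER59 lay at 0.86 ± 0.28, PER62 at 0.74 ± 0.24 and PER40 at -0.75 ± 0.14 (adjusted p 0.304, 0.293 and 0.074). PER22, a close relative of PER23, differed by -0.16 ± 0.09, and PER38, a close relative of Prx37, by 0.39 ± 0.16. Whether their probes also bind each other's transcripts was not tested.

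**Figure D3:**
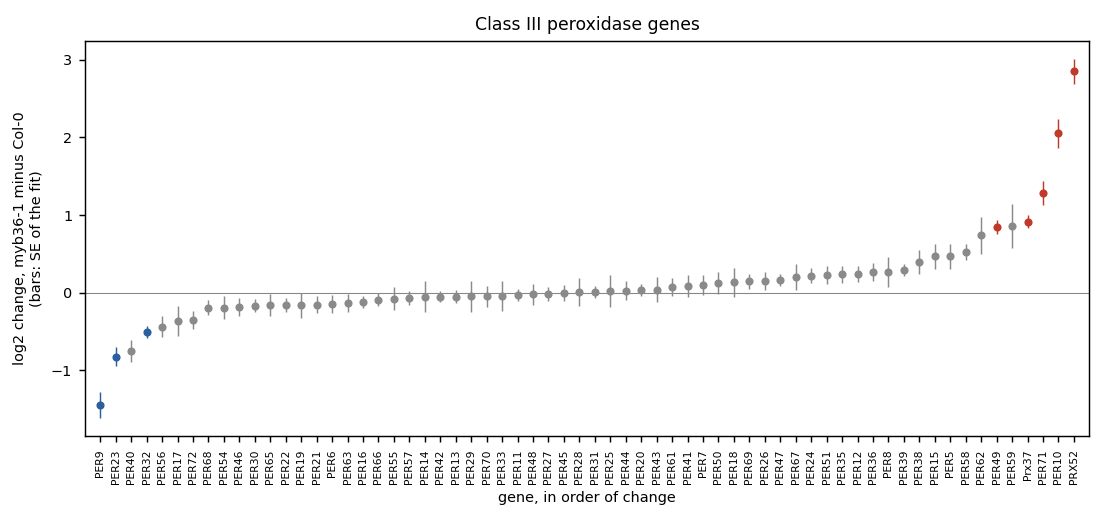
Log2 change (myb36-1 minus Col-0) of each of the 64 measured class III peroxidase genes in order of size, with bars for the SE of the fit. Coloured points are the 3 genes that fell and the 5 that rose, and the other 56 lie on both sides of 0 with a family median of 0.01.

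Single members of several other families rose as well. AT1G30760, a berberine bridge enzyme-like oxidase gene, had 6.93, 7.12 and 7.22 in myb36-1, against 5.32, 5.55 and 5.43 in Col-0. Its change of 1.66 ± 0.10 (adjusted p 6.7e-05) was the only call among 24 measured members. Of these members 17 had positive values, and the family median was 0.09. Among all named genes 0.248% rose, and 8145 of 16548 had positive values. AT1G26390 and AT1G30730 lay at 0.75 ± 0.26 and 0.41 ± 0.12 without overlap between the groups, but did not pass the test (adjusted p 0.333 and 0.249). The extensin gene AT1G26250, which encodes a structural wall glycoprotein, rose by 0.73 ± 0.11 (adjusted p 0.028). Of 10 measured extensin genes 9 had positive values with a median of 0.19, but AT4G08400 and AT3G54580, at 0.56 ± 0.16 and 0.39 ± 0.15, did not pass the test. AT1G26250 itself was called in 1 of the 6 fits that left out an array, with adjusted p up to 0.126. AZI3, a lipid transfer-like gene whose relatives act in systemic immunity, had 4.20, 4.17 and 3.80 in myb36-1, against 2.54, 2.46 and 2.86 in Col-0. It rose by 1.44 ± 0.18 (adjusted p 0.0099), with an adjusted p of up to 0.059 when 1 array was left out. In Col-0 AZI3 was dim, at percentile 9.98 of the tested probe sets. AT1G05450, a GPI-anchored lipid transfer protein gene, rose by 0.78 ± 0.09 and AT5G19240, another GPI-anchored protein gene, by 0.98 ± 0.14. AT1G05450 kept its call whichever array was left out, whereas AT5G19240 was called in 2 of those fits, with adjusted p up to 0.098.

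**Figure D4:**
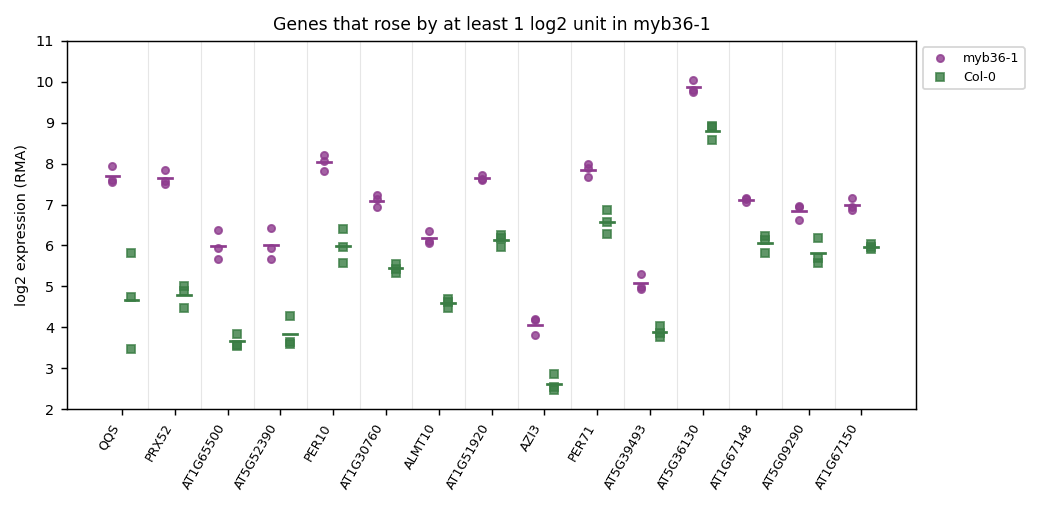
Log2 RMA values of the genes with the largest rises, array by array, with the 3 myb36-1 arrays left of the 3 Col-0 arrays for each gene and horizontal bars at the line means. The groups do not overlap in any gene shown, and the Col-0 arrays of QQS, at 3.48, 5.80 and 4.73, are spread more widely than those of the others.

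The largest rise belonged to QQS, an orphan gene known to affect starch and protein content. It had 7.60, 7.93 and 7.56 in myb36-1, against 3.48, 5.80 and 4.73 in Col-0, a change of 3.02 ± 0.45 (adjusted p 0.027). The arrays of myb36-1 had an SD of 0.21 and those of Col-0 an SD of 1.16, and in myb36-2, whose scale relative to the others is unknown, the mean was 4.28. QQS lost its call without Col-0 replicate 3, at 0.096, and without myb36-1 replicate 1, 2 or 3, at adjusted p of 0.108, 0.100 and 0.096 in limma.

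Some rises were in genes of transporters and enzymes of metabolism. ALMT10, of the aluminium-activated malate transporter family of anion channels, had 6.36, 6.10 and 6.07 in myb36-1, against 4.70, 4.47 and 4.61 in Col-0. It rose by 1.58 ± 0.14 (adjusted p 0.0010), while the other 9 measured family members lay between -0.27 and 0.18. The anion transporter gene AT3G45710, of the NAXT-type group of the NPF family, rose by 0.66 ± 0.09 (adjusted p 0.016). Another gene of the same group, AT3G45660, lay at 0.63 ± 0.16 without passing the test (adjusted p 0.189). The cytochrome P450 gene AT5G36130 rose by 1.06 ± 0.13, and the acyltransferase genes AT5G47980 and AT5G42830, of the BAHD family, by 1.00 ± 0.17 and 0.78 ± 0.11. AT5G47980 belongs to the gene cluster that makes the triterpene thalianol. The call of AT5G36130 held whichever array was left out, whereas AT3G45710, AT5G47980 and AT5G42830 were each called in 1 of those 6 fits, with adjusted p up to 0.086, 0.164 and 0.110.

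The rises also held receptor genes and genes of enzymes with varied roles. In a chromosome 1 cluster of malectin-like leucine-rich repeat kinase genes, AT1G51840 and AT1G51890 rose by 0.56 ± 0.09 and 0.52 ± 0.07. AT1G51830 and AT1G51860 lay at 0.68 ± 0.20 and 0.51 ± 0.12 without passing the test, and the 11 measured genes had a median of 0.12. GLR2.2, a glutamate receptor-like channel gene, rose by 0.54 ± 0.09, and ATSBT5.2, a subtilisin-like protease gene, by 0.49 ± 0.08. AT1G51840, AT1G51890, GLR2.2 and ATSBT5.2 were called in none of the fits that left out an array, with adjusted p up to 0.163, 0.105, 0.165 and 0.151. AT5G52390, a gene of the PAR1 family, had 5.95, 5.67 and 6.42 in myb36-1, against 3.59, 4.27 and 3.64 in Col-0. That is a change of 2.18 ± 0.22 (adjusted p 0.0029), and it was called whichever array was left out. AT5G09290, of the inositol monophosphatase family, rose by 1.02 ± 0.18 with an adjusted p that rounds to 0.050, and its call was lost in 5 of the 6 fits that left out an array, at up to 0.184.

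Several rises of at least 1 log2 unit were in genes with no symbol and no role given here. AT1G65500 had 5.67, 6.38 and 5.93 in myb36-1, against 3.57, 3.84 and 3.55 in Col-0, a change of 2.34 ± 0.18 (adjusted p 5.0e-04). AT1G51920 had 7.73, 7.61 and 7.60 in myb36-1, against 5.95, 6.25 and 6.19 in Col-0, a change of 1.52 ± 0.15 (adjusted p 0.0021). Neither gene's groups overlapped, and both calls held whichever array was left out. AT5G39493 rose by 1.19 ± 0.13, AT1G67148 by 1.06 ± 0.12 and AT1G67150 by 1.01 ± 0.17. AT1G67150 was called in none of the fits that left out an array, with adjusted p up to 0.152. The smaller rises, named after their values were seen, included an aspartyl protease gene (AT2G42980, 0.73 ± 0.09), an AAA ATPase gene (AT3G28580, 0.73 ± 0.09), a 2-oxoglutarate oxygenase-type gene (AT1G03400, 0.76 ± 0.13), a GDSL lipase gene (AT3G50400, 0.65 ± 0.11), a protein phosphatase 2C gene (AT3G16560, 0.57 ± 0.10) and YLS5 (0.64 ± 0.10). Of these 6, AT2G42980 was called in all 6 fits that left out an array, AT3G28580 in 4 with adjusted p up to 0.055, and the others in none with adjusted p up to 0.167. The last 8 rises, AT5G36925, AT1G64255, AT2G18690, AT1G53980, AT1G28100, AT2G38830, AT1G36640 and AT4G02650, lay between 0.53 and 0.83, and none of them was called in those fits, with adjusted p up to 0.171.

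Counted over 46 gene classes, 30 of the 80 called genes belonged to a class, 16 that rose and 14 that fell. Of the classes, 6 are lists of loci and 40 are families that were written after the called genes had been read, several because a called gene pointed to them. Having a call in a family is therefore partly set by that choice, and the counts are descriptions. In the dirigent family 2 of 18 measured genes fell and none rose, with a median of -0.01, where 0.236% of all named genes fell and 0.248% rose. In the berberine bridge enzyme-like, ALMT and CBS-DUF21 families a single member was called in each, while the family medians were 0.09, 0.01 and -0.06.

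**Figure D5:**
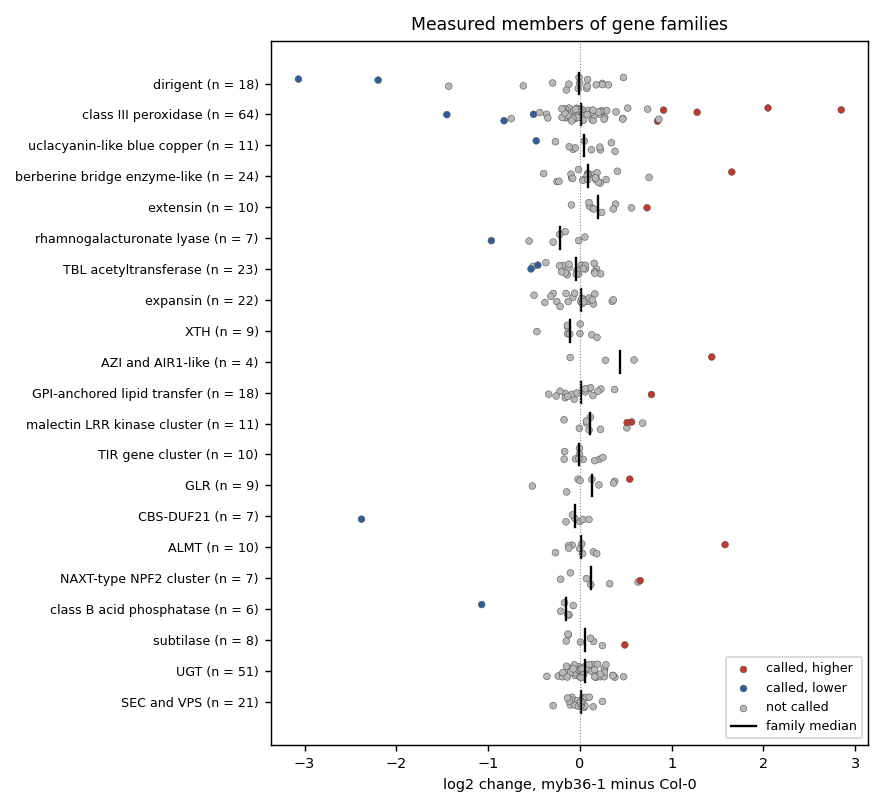
Log2 change (myb36-1 minus Col-0) of the measured members of 21 gene families, 1 point per gene, with called genes in colour and a bar at the family median. Medians lie near 0 in most families, and the values run from DIR9 at -3.07 to PRX52 at 2.85. Some called genes lie closer to 0 than uncalled members of their family. AT1G51840 at 0.56 is called and AT1G51830 at 0.68 is not, and TBL33 at -0.46 is called and TBL45 at -0.51 is not.

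Since 0.483% of all named genes were called, families of the sizes below would mostly hold no call at that share, and the counts say nothing particular to them. None was called among 51 measured UDP-glycosyltransferase genes, 63 LCR and 8 PDF defensin-like genes, 28 cytochrome P450 genes with a CYP symbol, 22 expansin, 9 XTH and 22 BGLU genes, or 14 SWEET sugar transporter genes. The same was true of 15 RALFL and 9 CLE peptide genes and of 7 WRKY and 10 bZIP transcription factor genes. The expansin genes had 12 positive and 10 negative values with a median of 0.02, from EXPB2 at -0.50 ± 0.14 to EXPA22 at 0.36 ± 0.12, and neither passed the test (adjusted p 0.220 and 0.299). The XTH genes had 4 positive and 5 negative values with a median of -0.11, and XTH32 was lowest at -0.47 ± 0.12 (adjusted p 0.185).

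Other barrier pathways, and lists of iron deficiency, immune and abscisic acid response genes, were thinly covered and held no call. With 0.483% of all named genes called, lists this short would mostly hold none. Of 19 listed suberin genes 2 were measured, LTPG15 at -0.34 ± 0.07 and FACT at 0.06 ± 0.08 (adjusted p 0.116 and 0.846). Of 25 listed genes of monolignol supply 7 were measured, with values from -0.30 for BGLU45 to 0.48 for UGT72E2 and a median of 0.13. HCT, an enzyme of the monolignol pathway, lay at 0.13 ± 0.08. Among iron deficiency genes 4 of 15 were measured, with BHLH101 lowest at -0.54 ± 0.18 (adjusted p 0.306). Among immune markers 2 of 14 were measured, and PDF1.2 differed by -0.02 ± 0.13. PDF1.2 was dim, at percentile 6.38 of the tested probe sets in Col-0 and 5.77 in myb36-1, so that difference says little. The single measured gene of 10 listed abscisic acid response genes also did not pass the test.

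Some called genes lay close together in the gene order of the reference. AT1G30750, which fell by 2.20 log2 units, lies 3 places before AT1G30760, which rose by 1.66. AT1G67148 and AT1G67150, which both rose, are direct neighbours and do not overlap in the reference. AT2G38830 and YLS5 rose and are 2 places apart, and AT2G40113 and TBL30 fell and are 6 places apart. No test of clustering was made.

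Size alone did not decide a call. Of 43 named genes with a change of at least 1 log2 unit, 12 were not called, and these are named here because of their values. AT5G38940, a germin-like gene, had 5.53, 5.59 and 5.39 in myb36-1, against 4.39, 3.59 and 3.77 in Col-0. Its difference of 1.58 ± 0.30 missed the threshold (adjusted p 0.073). ZIP9, of a metal transporter family, had 5.62, 5.87 and 5.98 in myb36-1, against 6.60, 7.38 and 6.95 in Col-0, with a difference of -1.16 ± 0.22 (adjusted p 0.073). Neither gene's groups overlapped. ECS1 differed by 1.23 ± 0.56 with 5.64, 3.03 and 3.46 in myb36-1, against 2.84, 2.68 and 2.92 in Col-0, so 1 mutant array carried most of the difference. Nearest to the threshold, AT5G36925, AT3G16560 and AT5G09290 lay inside it at adjusted p of 0.049, 0.049 and 0.050, and ATMPK13, DIR18 and AT5G47530 outside it at 0.052, 0.052 and 0.054.

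A further 71 called probe sets are paired with no gene in the tables used here, 29 higher and 42 lower in myb36-1, with changes from -4.47 to 2.63. The largest fall of the comparison is among them and is not named here. For AT1G72850, a gene of a TIR-domain cluster, 2 probe sets disagreed. The dimmer changed by -1.03 ± 0.13 (adjusted p 0.0099) and the brighter, which stands for the gene in the counts, by -0.17 ± 0.09 (adjusted p 0.537).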

How the data were processed

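Root RNA was measured on Affymetrix arrays. The authors deposited log2 values from RMA, as the submitters' processing notes name it. That method subtracts background, makes array distributions alike and combines probes into probe set values. The version used is not given in the sources used here. Of 38408 probe sets, 7083 that precede the first gene-annotated identifier were left out as control-like. The other 31325 entered a linear model with a mean for each line on all 9 arrays (limma 3.58.1 under R 4.3.3), with empirical Bayes moderation, no trend, a two-sided contrast of myb36-1 minus Col-0 and Benjamini-Hochberg adjustment. The number of arrays limits the precision. Each gene stands at its brightest probe set among those paired with 1 gene. Names come from the platform annotation and the TAIR10.1 gene table.

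Members and lists were chosen with earlier results of these data known. Named by rule are the 15 largest called changes in each direction, called genes of a class, up to 3 members of a class with at most 1 call, and the Casparian strip list. Further genes were picked with their values in view. Keyword classes on gene descriptions had been planned, but the tables used here hold no descriptions, so these classes were replaced by the 40 families. Family membership, gene roles and names such as DIR9, SGN1 and PER10 come from general knowledge of these loci. Promoter words and protein features were not analysed, and 1 gene that fell, with its family, is not reported here. On simulated data with normal noise, the test recovered 96 of 100 changes of 1 log2 unit and 99 of 100 changes of 2 units. That was among 31325 probe sets, with 8 false calls. The noise was independent between arrays and used spreads after moderation, so recovery in the real arrays may be lower. Alternatives covered the arrays in the fit, scaling, filters, moderation, weights, thresholds, the replicate number as a block and the omission of each array.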

Additional observations from a re-analysis of the deposited data

How the results depend on the processing

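Counts are given as called probe sets, genes that rose, genes that fell, and called genes in a class, with 155, 41, 39 and 30 as reported. With the 6 arrays of myb36-1 and Col-0 alone they were 94, 23, 24 and 18. With all deposited probe sets they were 81, 18, 21 and 17, where 7083 more probe sets without a call entered the moderation and the adjustment. With 1-gene probe sets only, 99 probe sets were called, where 81 of the 155 are paired with 1 gene. The genes that rose and fell were then 47 and 51, and the class genes 33. At an adjusted p under 0.01 the counts were 70, 17, 20 and 16, and with a change of at least 1 log2 unit 69, 15, 16 and 12. At an unadjusted p under 0.05, 120 class genes passed. Leaving out each array in turn gave 74 to 92 probe sets, 17 to 23 rises, 20 to 27 falls and 14 to 19 class genes. With the replicate number as a block the counts were 111, 24, 30 and 20. Deviations of same-numbered myb36-1 and Col-0 arrays from their line means correlated at -0.018, 0.064 and 0.075. For differently numbered arrays of the same lines the correlations ran from -0.13 to 0.076, a range that holds the same-numbered values. With so few arrays per line, these correlations cannot show whether the numbers pair the arrays. Quantile normalisation over 6 or 9 arrays, the brighter probe sets, trended robust moderation and array weights kept the counts within 1.5 times. Similar counts did not always mean the same genes. With the brighter probe sets, 46 genes rose and 55 fell, and 54 of the 80 called genes kept their call. Genes at dimmer probe sets were not in that fit. The other settings of this group kept 72 to 80 of the calls. The cause of these shifts was not tested. No called gene changed sign under any of these alternatives.

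Signs changed only for uncalled genes near 0. AT1G47400 was -0.016 after quantile normalisation over 6 or 9 arrays and -0.0016 with array weights, and AT1G62500 -0.0095 and -0.0094 after the same normalisations. With 1 array left out, the values ran from -0.25 to 0.0010 for AT1G09750, -0.49 to 0.15 for AT1G26240, -0.062 to 0.10 for AT1G47400, -0.10 to 0.11 for AT1G62500, -0.072 to 0.19 for AT1G62510, -0.60 to 0.15 for AT3G12900, -0.21 to 0.024 for AT4G12530, -0.090 to 0.13 for EXPA18, -0.040 to 0.075 for EXPA7, -0.10 to 0.091 for PDF1.2 and -0.13 to 0.10 for UGT72E1.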
